A study of Mus musculus with 6 samples.

Results

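The promoters of the homeobox genes Dlx2, Dlx5 and Dlx6 were examined in mouse limb explants, as the 3 rows of these names among the 235 promoters of the deposited signal table, taken by gene symbol. The rule itself uses no measured value, but these genes were proposed with earlier results of these data known. Open chromatin was assayed by ATAC-seq, a method in which a transposase cuts and tags DNA that is not packed away by nucleosomes. The explants were limbs of WT mice of the outbred CD-1 stock, collected 1 day post amputation. They had been cultured at an air-liquid interface (ALI, 3 libraries) or in 96-well plates (3 libraries), and genotype, tissue and time were the same in both groups. The labels' protocols name 4 limbs collected from each culture, without saying how limbs or animals were divided over libraries, so p-values here speak of the spread among these 6 libraries, part or all of which may be technical. By its title the series is about oxygen sensing and how limb regeneration begins. In whole-explant libraries, a larger share of cells with an open promoter and a more open promoter in each cell cannot be told apart.

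Dlx genes encode homeodomain transcription factors related to Distal-less of the fly. In mammals they lie in convergently transcribed pairs that share enhancers between and around the partners. In the limb bud several of them are active in the apical ectodermal ridge, the distal epithelium whose FGF signals keep the limb growing. Joint loss of Dlx5 and Dlx6 in mice gives a split hand or foot, whereas Dlx2 is best known from the forebrain and the branchial arches.

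In GRCm39 coordinates, counted from 1, the start site (TSS) of Dlx2 lies on the minus strand of chromosome 2 at 71377099, with its window at chr2:71376099-71378099. Dlx5 starts on the minus strand of chromosome 6 at 6882086 (window chr6:6881086-6883086). Dlx6 starts on the plus strand of the same chromosome at 6863335 (window chr6:6862335-6864335). The pair therefore face each other over 18751 bp between start sites, and their windows do not overlap. Dlx1, the partner of Dlx2 and also in the table, starts on the plus strand at 71358458, 18641 bp from Dlx2. Every window reaches 1000 bp to either side of the TSS and is cut into 100 bins of 20 bp, with distances read in the direction of transcription. Exons and untranslated regions within the windows are not described, for want of an annotation of that build.

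The stretch just before the RefSeq start of Dlx2 is shown because the signal of this promoter rose just before its TSS. The mean signal over the 240 bp before the TSS was 13.7 ± 4.05 (SD, n = 6), against 0.409 ± 0.21 (SD, n = 6) over the first 200 bp of the window. RefSeq gives the 250 bases before the Dlx2 start, in build GRCm38.p6 at chr2:71546755-71547004, minus strand, 5′ to 3′. Whether this start is the same base as the GRCm39 TSS was not checked. Capitals mark matches to the motifs searched.

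Dlx2: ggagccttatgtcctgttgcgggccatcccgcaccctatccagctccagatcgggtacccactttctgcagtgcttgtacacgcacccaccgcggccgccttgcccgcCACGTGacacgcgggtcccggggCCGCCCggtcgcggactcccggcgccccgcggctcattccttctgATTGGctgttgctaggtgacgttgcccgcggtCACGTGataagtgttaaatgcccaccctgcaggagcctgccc

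This sequence has 66.4% G+C and 24 CpG, an observed to expected CpG ratio of 0.89. The median of the 204 RefSeq promoters found for 164 genes of the table was 57.6%, 13 and 0.63. Dlx2 lay above 74.5%, 80.9% and 78.9% of them. Motifs were searched on both strands. CCAAT was found at 1 place, on the minus strand from −74 to −70 counted from the start, and 34.3% of the table's promoters hold it. The GC box GGGCGG was found at 1 place, on the minus strand from −119 to −114, against 49.0% of the table's promoters. ACGTG, the core of the element bound by hypoxia-inducible factors, was found 4 times, because each of 2 copies of the palindrome CACGTG holds it on both strands, starting at −142 and −42. It occurs in 17.6% of the table's promoters and in 16.6% of all 32851 RefSeq mouse promoters of this length. TATAAA and TAATT, the core of many homeodomain sites, were not found in these letters, and 11.3% and 22.1% of the table's promoters hold them. These matches describe the sequence only. Dlx5 and Dlx6 are named without a sequence.

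The values are depth-normalized ATAC signal. Mean signal over a window is called the level here, and it can be compared between promoters because all windows have the same length. The signal of 1 read per base ranged from 0.0871 to 0.146 between libraries, so relative depth ranged from 0.767 to 1.29 of the mean, if the scale depends on read number alone. On that footing the mean coverage was 52.8 to 131.0 reads per base at Dlx2, 69.1 to 145.2 at Dlx5 and 84.3 to 201.1 at Dlx6. Over all promoters the mean signal was highest in ALI replicate 2 (18.6) and 96-well replicate 3 (14.7), and 10.1 to 12.4 in the other 4 libraries. The Dlx promoters followed those libraries, which is why each comparison is also given as a ratio within libraries. The label of the tissue could be checked on few markers, since the table holds 2 of 7 surface ectoderm markers, 1 of 5 limb mesenchyme markers and none for cartilage, muscle, blood or endothelium. Msx1, a mesenchyme marker, had a level of 12.9, Cdh1 (E-cadherin) 5.97 and Trp63 (the p63 factor of stratified epithelium) 1.81 as means of 6 libraries.

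The 3 promoters differed in the shape of their open chromatin. Dlx2 rose to a narrow crest at the TSS and stayed open as a plateau over the start of the gene. Its highest bin lay 10 bp upstream of the TSS in all 6 libraries, with a mean signal of 21.5 ± 7.24 (SD, n = 6), and the bin at 550 bp still reached 16.7 ± 4.78. Its upstream side was nearly closed: the mean from −1000 to −200 bp was 3.29 ± 0.68, against 14.6 ± 4.67 in the core (−200 to 200 bp) and 13.4 ± 3.34 downstream (200 to 1000 bp). Downstream of the TSS lay 71.0% ± 1.75 (SD, n = 6) of its signal, which ranked it 39 of 235 promoters.

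Dlx5 formed a compact peak over its TSS with a shoulder into the gene. Its mean in the core was 19.0 ± 5.61 (SD, n = 6), against 5.61 ± 0.73 upstream and 11.4 ± 1.71 downstream. The bin just upstream of the TSS had a mean of 24.8 ± 7.46. Its highest bin lay within 30 bp of the TSS in the 3 ALI libraries and in 96-well replicate 3, and at 130 and 430 bp in 96-well replicates 1 and 2. Bins above 2 times the flank mean of their library, called open bins here, formed 1 unbroken stretch in 5 libraries. It began 240 to 100 bp upstream of the TSS and ended 520 to 660 bp downstream. In 96-well replicate 1 a further stretch of 40 bp lay beyond it.

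Dlx6 had its TSS in a trough between a pair of open regions. The upstream hump had a mean of 20.9 ± 3.90 (SD, n = 6) from −660 to −380 bp. The downstream hump reached 26.8 ± 8.18 from 220 to 500 bp. Between −200 and 40 bp the mean was 8.13 ± 1.77. These limits were set after the profile was seen. The highest bin lay between 270 and 430 bp downstream in 5 libraries and at −450 bp in ALI replicate 3. The central 400 bp held 14.0% ± 1.64 of the Dlx6 signal, which ranked it 223 of 235 promoters, against 30.1% ± 2.44 at Dlx2 and 35.2% ± 4.89 at Dlx5. By the same limits, 13 of 235 promoters (5.53%) had both outer regions above the region around the TSS, Dlx1, Fgf4 and Notch1 among them. This count sets no lowest signal, so it does not show a pair of open regions at each. Dlx1 had its highest bin at 990 bp in all 6 libraries, and Fgf4 had a level of 1.95.

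The profile of each promoter was stable between libraries. Pearson's r over the 100 bins had a median of 0.97 at Dlx2, 0.94 at Dlx5 and 0.96 at Dlx6 over 15 pairs of libraries, with a lowest value of 0.88. Bins of 1 window share reads and neighbours, so these values describe shape only. Between promoters, on the log2 scale and averaged over the 6 libraries, Dlx2 and Dlx5 had r = 0.82, Dlx2 and Dlx6 0.51, and the linked pair Dlx5 and Dlx6 0.48. The promoters most like Dlx2 over 100 bins were Tifa (r = 0.95), Axin2 (0.94) and Bcor (0.91). For Dlx5 they were Gm9918 (0.95), Dnajb14 (0.95) and Rnf111 (0.93). The best matches of Dlx6 were further off, at 0.78 for Gm13830, 0.70 for Xlr5a and 0.65 for Ccdc27.

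Dlx6 had the highest level of the 3. Its mean signal was 12.3, 17.5 and 12.7 in ALI replicates 1, 2 and 3, and 13.1, 11.5 and 19.4 in 96-well replicates 1, 2 and 3. Dlx5 had 10.3, 12.6 and 9.88 in ALI and 9.76, 8.09 and 13.0 in 96-well culture, in the same order. Dlx2 had 7.71, 10.8 and 8.10 in ALI and 9.01, 7.91 and 14.1 in 96-well culture. ALI replicate 2 and 96-well replicate 3 were the highest of their culture for all 3 promoters, and the cultures overlapped at each. As means of 6 libraries the levels were 14.4 ± 3.22 (SD), 10.6 ± 1.88 and 9.60 ± 2.48 for Dlx6, Dlx5 and Dlx2. They ranked 86, 117 and 124 of 235, around the table's median of 10.6.

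Within each library Dlx6 exceeded Dlx2 by 0.54 ± 0.09 (SD, n = 6) in log2(signal + pseudocount), higher in 6 of 6 libraries, a ratio of 1.46. The exact two-sided sign-flip permutation test gave p = 0.03125, the smallest that 6 libraries allow, and 0.0469 after Benjamini-Hochberg adjustment over 3 pairs. Dlx5 lay below Dlx6 in 6 of 6 libraries by the same test, with a difference of −0.40 ± 0.10 and the same exact p-values. Dlx5 exceeded Dlx2 by 0.14 ± 0.17 in 5 of 6 libraries, which did not pass (adjusted exact permutation p = 0.125). In the central 400 bp the order turned. There Dlx6 minus Dlx2 was −0.48 ± 0.14 (0 of 6 libraries higher) and Dlx5 was higher than Dlx6 by 0.83 ± 0.35 (6 of 6), each with an adjusted exact permutation p of 0.0469. Dlx5 exceeded Dlx2 there by 0.36 ± 0.38 (adjusted exact permutation p = 0.0938).

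In the order of levels the next promoters were Tmem141 and Phyh around Dlx2, Dnajb14 and Rspo2 around Dlx5, and Zfp369 and Wnt5a around Dlx6. Each neighbour's mean lay within 1 SD of the Dlx mean, as its place in the order nearly fixes, so no test is given. Rspo2, which encodes a secreted activator of Wnt signalling in the ridge, lay just below Dlx5 at 10.6 ± 2.58 (SD, n = 6). Wnt5a, a Wnt ligand of the outgrowing limb, lay just below Dlx6 at 14.4 ± 3.34.

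**Figure D1:**
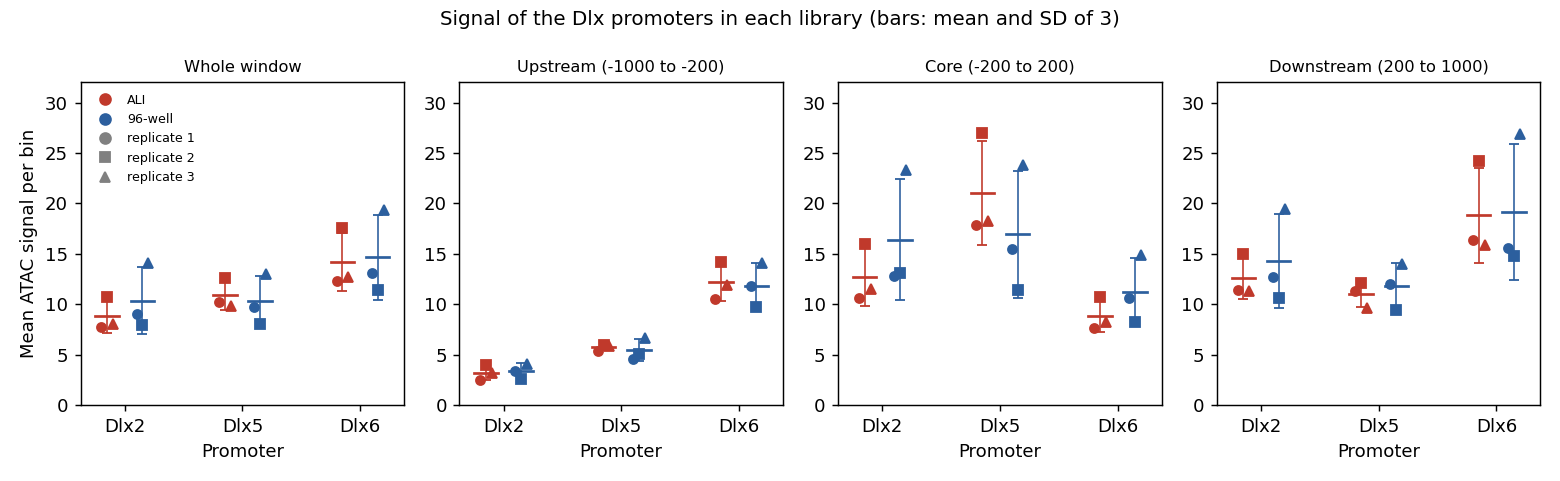
Mean ATAC signal per bin in each library, for the whole window and for its upstream, core and downstream segments (bp from the TSS), with the mean and SD of 3 libraries per culture as bars. Dlx6 is highest of the 3 in the whole window, with 11.5 to 19.4, and lowest in the core, with 7.70 to 14.9.

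Breadth was read in 3 ways. The effective width is the length that a flat profile of the same sum and sum of squares would cover. The width at 50% of the maximum counts smoothed bins at or above that height. The open length counts open bins, above a threshold of 9.13 to 13.5 depending on the library. The first does not depend on the scale of a library or on a threshold, and it was the main measure.

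By effective width, all 3 promoters lay above the table's median. This measure can also be high where the signal in the window is low: Dlx1, with a level of 4.65 and a mean open length of 96.7 bp, had 1487 bp. Dlx2 measured 1447, 1471 and 1499 bp in ALI replicates 1, 2 and 3, and 1503, 1466 and 1399 bp in 96-well replicates 1, 2 and 3. Dlx5 measured 1426, 1272 and 1480 bp, and 1479, 1652 and 1451 bp. Dlx6 measured 1609, 1443 and 1498 bp, and 1732, 1567 and 1477 bp. The 3 ranges overlapped. The means of 6 libraries were 1464 ± 38.2 (SD), 1460 ± 122 and 1554 ± 106 bp, ranks 67, 69 and 43 of 234, where the table's median was 1162 bp.

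The within-library difference in log2 effective width was −0.0075 ± 0.12 (SD, n = 6) for Dlx5 minus Dlx2 and ranged from −0.21 to 0.17 (adjusted exact permutation p = 0.781). For Dlx6 minus Dlx2 it was 0.08 ± 0.09, with 4 of 6 libraries higher, a range of −0.03 to 0.20 and an adjusted exact permutation p of 0.234. For Dlx5 minus Dlx6 it was −0.09 ± 0.12, with a range of −0.23 to 0.08 and an adjusted exact permutation p of 0.234. None of the 3 pairs differed beyond the spread of libraries by this measure, which does not show that the widths are equal.

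The measures with a threshold separated the promoters. At 50% of the maximum Dlx2 was the widest, with 1060 to 1260 bp in the 6 libraries (mean 1177 bp, rank 18 of 235). Dlx6 had 820 to 1140 bp (mean 896.7 bp, rank 46) and Dlx5 600 to 820 bp (mean 706.7 bp, rank 76), against a table median of 476.7 bp. Dlx5 was narrower than Dlx2 in 6 of 6 libraries, with a log2 difference of −0.74 ± 0.18, and Dlx6 was narrower than Dlx2 in 6 of 6, with −0.40 ± 0.19. Each had an adjusted exact permutation p of 0.0469. Dlx5 against Dlx6 did not pass (−0.34 ± 0.21, adjusted exact permutation p = 0.0625).

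By open length the order was Dlx6, Dlx2, Dlx5. Dlx6 had 1160, 1040 and 1000 bp open in ALI and 1520, 1040 and 1260 bp in 96-well culture, for replicates 1, 2 and 3. Dlx2 had 880, 840 and 900 bp in ALI and 1080, 1100 and 1160 bp in 96-well culture. Dlx5 had 660, 740 and 680 bp in ALI and 820, 640 and 840 bp in 96-well culture. The means of 1170, 993 and 730.0 bp ranked 35, 57 and 103 of 235, and the table's median was 653 bp. Dlx5 was shorter than Dlx2 in 6 of 6 libraries (log2 difference after adding 1 bin −0.43 ± 0.19) and shorter than Dlx6 in 6 of 6 (−0.66 ± 0.15), each with an adjusted exact permutation p of 0.0469. Dlx6 against Dlx2 was 0.23 ± 0.21, higher in 5 of 6, and did not pass (adjusted exact permutation p = 0.0625). The linked Dlx6 and Dlx5 lay on either side of Dlx2 by open length, and both lay below Dlx2 at 50% of the maximum.

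**Figure D2:**
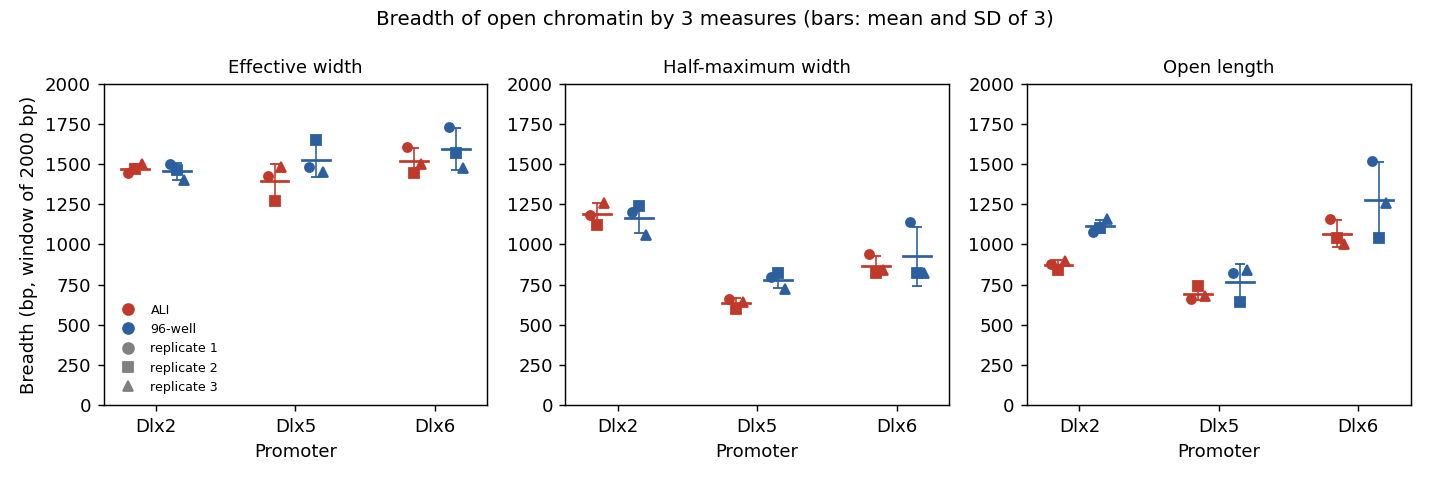
Breadth in bp of the 2000 bp window by effective width, width at 50% of the maximum and open length, per library, with the mean and SD of 3 libraries per culture as bars. The promoters overlap by effective width, with means of 1464, 1460 and 1554 bp for Dlx2, Dlx5 and Dlx6. Dlx2 is widest at 50% of the maximum, and its open length is 840 to 900 bp in ALI and 1080 to 1160 bp in 96-well culture.

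Between cultures, no Dlx promoter was called for a change in level on the deposited scale. The intervals were wide, so this does not show that the levels were equal. The log2 difference, ALI minus 96-well, was −0.18 ± 0.26 (SE, 95% interval −0.70 to 0.34) at Dlx2. At Dlx5 it was 0.09 ± 0.28 (−0.45 to 0.64), and at Dlx6 −0.03 ± 0.31 (−0.63 to 0.58). The adjusted p-values from limma over 235 promoters were 0.866, 0.920 and 0.975. limma called 0 of 235 promoters (0.0%) on this scale, 7 had an unadjusted p under 0.05, none of them a Dlx promoter, and 14 (5.96%) had cultures that did not overlap. The sign at Dlx2 rests on 96-well replicate 3: without it the difference was 0.05, and at Dlx6 0.18. The sign at Dlx5 turned without ALI replicate 2 (−0.0050) or 96-well replicate 2 (−0.05), and that at Dlx6 also without ALI replicate 1 (0.06) or ALI replicate 3 (0.04).

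The median change over all promoters was 0.14 on the deposited scale and −0.03 after each library was centred on its median promoter. After centring, the Dlx2 promoter was less accessible in ALI. Its difference was −0.34 ± 0.09 (SE), with an limma adjusted p of 0.0041, and its cultures did not overlap. In this fit 51 of 235 promoters (21.7%) were called, 24 of them lower in ALI (10.2%), and 92 had cultures that did not overlap (39.1%), so 1 call among 3 Dlx promoters is near the table's share. The number called was 22 without 96-well replicate 1 and 25 without 96-well replicate 2. Dlx6 had −0.19 ± 0.09 with cultures that did not overlap, and did not pass (limma adjusted p = 0.107). Dlx5 had −0.07 ± 0.09 with overlapping cultures (limma adjusted p = 0.640).

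The call of Dlx2 depended on how libraries were brought to a common scale. It passed with flanks scaled to be equal (−0.27, limma adjusted p = 0.026, 31.1% of the table called) and after cyclic loess (−0.25, 0.018, 26.0% called), and not after quantile normalization (−0.24, 0.13). Centred, it was lost without 96-well replicate 3 (−0.24, limma adjusted p = 0.059) and without the mean-variance trend of limma (0.091, with 0 of 235 promoters called and 65 at an unadjusted p under 0.05). Dlx6 passed after cyclic loess only (−0.23, 0.010), among the 5 scalings. Dlx5 stayed between −0.07 and 0.09 in all 5.

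Near the start sites the culture differences had unlike signs, and none passed on the deposited scale. In the core Dlx2 had a mean signal of 10.6, 16.0 and 11.5 in ALI replicates 1, 2 and 3, and 12.8, 13.1 and 23.3 in 96-well replicates 1, 2 and 3. Dlx6 had 7.70, 10.7 and 8.22 in ALI and 10.6, 8.27 and 14.9 in 96-well culture. Dlx5 had 17.9, 27.0 and 18.3 in ALI and 15.5, 11.4 and 23.8 in 96-well culture. The cultures overlapped at each of the 3 on this scale. limma called 0 of 235 core segments (0.0%), with 7 at an unadjusted p under 0.05, and the Dlx differences were −0.31 (Dlx2), −0.29 (Dlx6) and 0.33 (Dlx5), each with an limma adjusted p of 0.682.

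Centred, the core of Dlx2 fell by 0.48 in log2 units in ALI (SE 0.14, limma adjusted p = 0.0089) and that of Dlx6 by 0.45 (SE 0.15, limma adjusted p = 0.018), and neither overlapped between cultures, as at 35.7% of core segments. The core of Dlx5 was 0.16 ± 0.14 (SE) higher, with overlapping cultures (limma adjusted p = 0.442). Of all 235 core segments 43 (18.3%) were called, 13 lower (5.53%) and 30 higher in ALI, so the Dlx2 and Dlx6 cores were among the 13. The number called was 12 without ALI replicate 3, 17 without 96-well replicate 1 and 16 without 96-well replicate 2. Their limma adjusted p rose to 0.080 and 0.093 without the trend. Leaving out single libraries lost the call of Dlx2 without ALI replicate 3 (0.068) or 96-well replicate 3 (0.060). The call of Dlx6 was lost without ALI replicate 2 (0.073), ALI replicate 3 (0.083), 96-well replicate 1 (0.12) or 96-well replicate 3 (0.054). For Dlx5 the centred core difference was −0.01 without 96-well replicate 2. Outside the core, the centred downstream segment of Dlx2 fell by 0.30 (limma adjusted p = 0.028, 21.3% of the table called). Downstream of Dlx5 and Dlx6 the centred differences of −0.24 and −0.16 did not pass, nor did any Dlx upstream segment, where 11.1% of the table was called.

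The position of the difference along each window was read in steps of 100 bp, as a description. After centring, the cultures did not overlap at 5 of 20 positions of Dlx2, all lower in ALI: the 4 from −200 to 200 bp and that from 300 to 400 bp. At Dlx6 they did not overlap at 5 of 20 positions, the adjoining ones from −400 to 100 bp. At Dlx5 they did not overlap at 2 of 20, from 800 to 1000 bp. No position of the 3 was higher in ALI without overlap. Over all promoters 15.1% of 4700 positions were lower and 8.91% higher in this way. On the deposited scale, positions without overlap were −200 to 0 bp at Dlx6, 900 to 1000 bp at Dlx5 and none at Dlx2, against 5.68% lower over the table.

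At Dlx6 these positions covered the trough and the inner edge of the upstream hump. From −200 to −100 bp the ALI libraries had a mean signal of 6.00 ± 0.88 and the 96-well libraries one of 8.37 ± 1.13 (SD of 3 libraries each). The upstream hump had 22.0 ± 4.23 in ALI and 19.9 ± 4.09 in 96-well culture. The ratio of the upstream hump to the trough was 3.12, 3.27 and 3.21 in ALI replicates 1, 2 and 3, and 1.89, 2.11 and 2.31 in 96-well replicates 1, 2 and 3. The cultures did not overlap, and the ratio is free of the scale of a library. These limits were set after the profile was seen, so the ratio is left without a test. By them, 3 of 235 promoters (1.28%) had a higher ratio in ALI without overlap, and 46 (19.6%) did not overlap in either direction. For these counts the pseudocount was added to both parts of the ratio, so they are not wholly free of library scale. The ratio of the downstream hump to the trough overlapped between cultures, at 3.84 ± 0.49 and 2.83 ± 0.79. The share of the Dlx6 signal in the central 400 bp was 12.6% ± 0.32 in ALI and 15.3% ± 0.91 in 96-well culture, without overlap (exact two-sided permutation p = 0.1, the smallest that 3 against 3 allow). This p is unadjusted, from several shape measures tested at each Dlx promoter. At Dlx2 and Dlx5 this share overlapped between cultures (exact permutation p = 0.2 each). How many of all promoters lacked overlap by this measure was not counted.

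**Figure D3:**
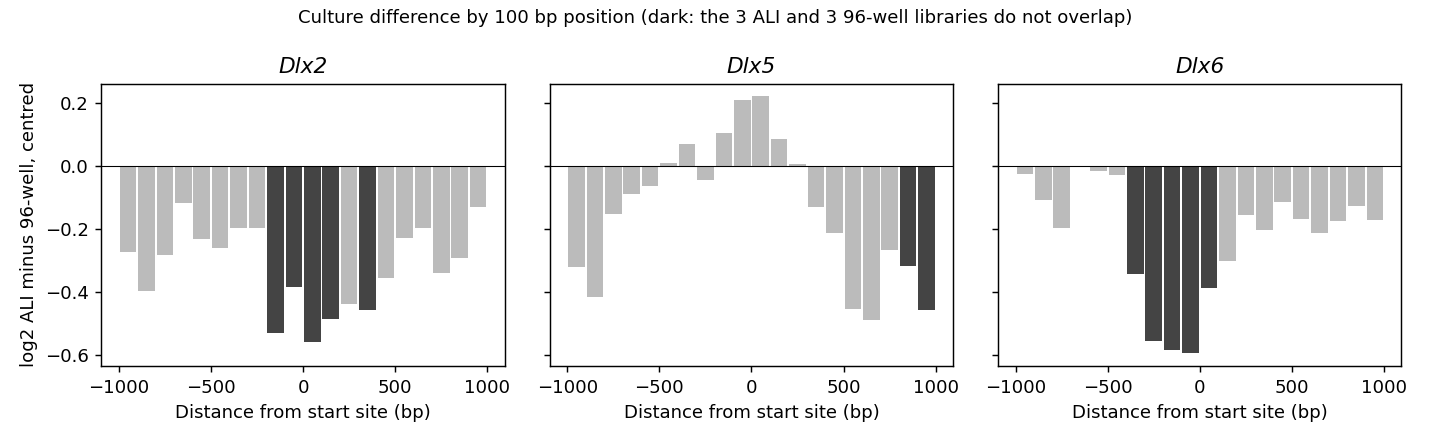
Difference between cultures, log2 ALI minus 96-well after median centring, at each 100 bp position (horizontal axis, bp from the TSS) of Dlx2, Dlx5 and Dlx6. Dark bars are positions where the 3 ALI and 3 96-well libraries do not overlap: 5 at Dlx2 near its TSS, 2 at the far end of Dlx5 and 5 from −400 to 100 bp at Dlx6, all below 0.

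Multiplying a whole library by a factor changes the ratio of a pair of Dlx promoters within it only through the pseudocount, whereas quantile normalization and cyclic loess can change it further. Over the whole window the ALI libraries had a log2 ratio of Dlx5 to Dlx2 of 0.28 ± 0.08 against 0.01 ± 0.11 in the 96-well libraries (SD of 3 libraries each), a difference of 0.27 without overlap. That of Dlx6 to Dlx2 was 0.62 ± 0.03 in ALI and 0.47 ± 0.03 in 96-well culture, a difference of 0.15 without overlap. Each gave an exact two-sided permutation p of 0.1, the smallest that 3 against 3 allow, and 0.3 after adjustment over 6 comparisons, so the design could not reach the threshold of 0.05. Dlx5 to Dlx6 overlapped (−0.34 ± 0.10 and −0.46 ± 0.07, exact permutation p = 0.2). Of all 27495 pairs of promoters 33.7% had ratios that did not overlap between cultures, so such a separation was common. The 3 Dlx pairs share promoters and are not independent, so their 2 of 3 cannot be weighed against that share.

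In the central 400 bp the ALI libraries had a log2 ratio of Dlx5 to Dlx2 of 0.68 ± 0.05 against 0.03 ± 0.22 in the 96-well libraries (SD of 3 libraries each). Without each library in turn this difference of 0.64 stayed between 0.54 and 0.75. For Dlx5 to Dlx6 the log2 ratio was 1.14 ± 0.10 in ALI and 0.52 ± 0.11 in 96-well culture, a difference of 0.62 that stayed between 0.56 and 0.68. Neither ratio overlapped between cultures (exact permutation p = 0.1 each, the smallest possible), against 31.9% of all pairs. The ratio of Dlx6 to Dlx2 was −0.46 ± 0.06 and −0.49 ± 0.21 and overlapped (exact permutation p = 0.9). In these libraries, Dlx5 around its start site thus stood higher against its partner Dlx6 and against Dlx2 in ALI than in 96-well culture. The ratio of Dlx6 to Dlx2 did not differ beyond the spread. Both ratios that separated share the Dlx5 signal, so they are not independent. This test was chosen after seeing the data and could not reach the threshold of 0.05.

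**Figure D4:**
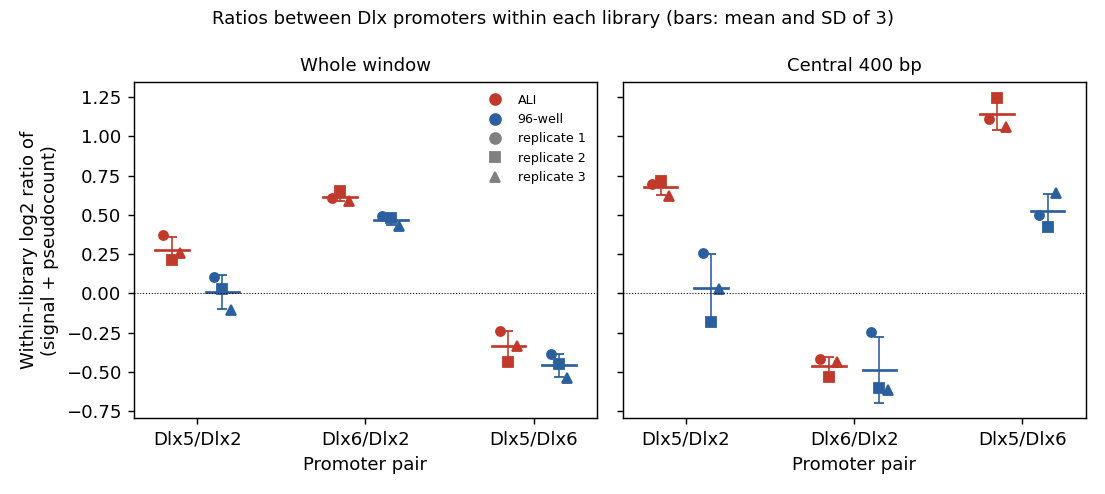
Within-library log2 ratio of signal plus pseudocount for Dlx5 to Dlx2, Dlx6 to Dlx2 and Dlx5 to Dlx6, over the whole window and the central 400 bp, per library with the mean and SD of 3. In the central 400 bp the ALI libraries lie above the 96-well libraries for Dlx5 to Dlx2 (0.68 against 0.03) and Dlx5 to Dlx6 (1.14 against 0.52).

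The culture difference in breadth at the Dlx promoters depended on the measure. The log2 difference in effective width, ALI minus 96-well, was 0.02 ± 0.07 (SE) at Dlx2, −0.13 ± 0.08 at Dlx5 and −0.07 ± 0.08 at Dlx6, with limma adjusted p of 0.896, 0.305 and 0.554. None of the 3 was called, whereas 44 of 234 promoters (18.8%) were, all narrower in ALI. That number rested on single libraries, with 70 called without ALI replicate 1, 8 without 96-well replicate 1 and 13 to 24 without any other library. Open length gave another result for Dlx2, where 873 ± 30.6 bp (SD, n = 3) in ALI and 1113 ± 41.6 bp in 96-well culture did not overlap. That was −0.34 ± 0.04 (SE) in log2 units with an limma adjusted p of 0.032, 1 of 10 calls among 234 promoters (4.27%), and 20.1% of promoters did not overlap by this measure. At 50% of its maximum Dlx5 spanned 633 ± 30.6 bp in ALI libraries and 780.0 ± 52.9 bp in 96-well libraries (SD of 3 each) without overlap, and did not pass (−0.30, limma adjusted p = 0.128). By that measure 3 of 234 promoters (1.28%) were called and 17.1% did not overlap. By effective width, the ratios between Dlx promoters overlapped between cultures for all 3 pairs, with exact permutation p of 0.3, 0.3 and 0.7. At 50% of the maximum, the log2 ratio of Dlx5 to Dlx2 was −0.91 ± 0.07 in ALI and −0.58 ± 0.02 in 96-well culture (SD of 3 libraries each), without overlap. The other ratios by that measure, and all of them by open length, overlapped. These threshold ratios were not tested between cultures, and their share among all pairs was not counted.

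The Dlx promoters can be set beside the network in which they act. Of a list of 30 genes of the Dlx and ridge network 25 were in the table, and limma called none in level on the deposited scale. After centring, 6 of 25 were called lower and 0 higher in ALI, where 10.2% of all promoters were called lower and 21.7% either way. They were Dlx2, the BMP ligands Bmp2 and Bmp4, Rspo2, the Wnt inhibitor Dkk1 and the ridge growth factor Fgf8. The list was written with earlier results of these data known, so its direction is no independent evidence. The difference was negative for 24 of the 25, with a median of −0.19 against −0.03 over all promoters. On the deposited scale it was negative for 16, with a median of −0.03 against 0.14. In effective width 1 of 25 was called, Bmp7, narrower in ALI. Of 61 homeobox genes listed, 7 were in the table: the Dlx genes with Dlx1, and Msx1, Msx2 and En1. Dlx2 was called lower in the centred fit, and the other 6 were not called. Dlx1 had the lowest level of the Dlx promoters, 4.65 (rank 164 of 235), and a centred difference of −0.03 (limma adjusted p = 0.909). Its highest bin was the last of the window, at 990 bp, in all 6 libraries, and signal beyond the window is not counted in this level.

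Of the 2 surface ectoderm markers of the list that are in the table, neither passed after centring. Both had values below 0 with cultures that did not overlap, as at 39.1% of all promoters in this fit. Cdh1 had −0.25 ± 0.11 (SE, limma adjusted p = 0.080) and Trp63 −0.40 ± 0.21 (limma adjusted p = 0.136). The mesenchyme marker Msx1 had −0.19 ± 0.09 (limma adjusted p = 0.120), and its cultures did not overlap either. St14, an epithelial membrane serine protease outside that list and added after its values were seen, was called lower in the same fit (−0.34 ± 0.11, limma adjusted p = 0.015) and not on the deposited scale (−0.17, limma adjusted p = 0.845). On the deposited scale the summed level of Cdh1 and Trp63 ranged from 6.76 to 8.37 in ALI and from 6.86 to 10.4 in 96-well libraries. Neither they nor Msx1 were at 0. The part of cell composition in the Dlx differences was not tested.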

How the data were processed

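ATAC-seq signal of 6 libraries (3 ALI, 3 96-well) was taken from the deposited table of 235 promoters. Per the file headers, the authors computed this signal with deepTools in bins of 20 bp from tracks normalized to sequencing depth, by a formula not given in the sources used here. Per the submitters' processing notes the tools were deepTools 3.5.1, Picard, SAMtools 1.16.1, Bowtie2 2.5.1 and Trim Galore 0.6.10, and the build GRCm39. Transposase shift, duplicate removal and the choice of the 235 promoters are not given in the sources used here.

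Level was log2(mean signal + 1.06), the pseudocount being 0.1 times the median promoter signal. ALI minus 96-well was fitted over all promoters with limma 3.58.1 in R 4.3.3 (eBayes with trend), with Benjamini-Hochberg adjustment and a threshold of 0.05. For deposited and centred levels the fit gave infinite prior degrees of freedom, so each variance there came from the trend alone. Breadth fits used 234 promoters, since 1 had a library at 0 throughout. Flanks were the outer 200 bp on each side of all windows. Promoter pairs were tested by exact sign flips within libraries, and cultures by exact permutation. The fit was tested on simulated data.

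The members, lists and tests were chosen with earlier results of these data known. The rule named Dlx2, Dlx5 and Dlx6, their 3 most similar profiles, their neighbours in level and width, and counts of fixed lists. The 100 bp positions, the Dlx6 hump limits, cyclic loess, the central-window test of cultures and the combinations with centring were chosen after seeing the data. Other alternatives were pseudocounts, a signal filter, quantile normalization, equal flanks, core edges, a replicate block and leaving out each library.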

Additional observations from a re-analysis of the deposited data

How the results depend on the processing

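Within-library comparisons of levels kept their direction and side of the threshold under the other pseudocounts. With single libraries left out they ranged from 0.52 to 0.56 (Dlx6 minus Dlx2), 0.10 to 0.19 (Dlx5 minus Dlx2) and −0.43 to −0.37 (Dlx5 minus Dlx6) in log2 units, although with 5 libraries the exact sign-flip p cannot go below 0.0625. In the central 400 bp, Dlx6 minus Dlx2 turned to −0.48 and Dlx5 minus Dlx6 to 0.83. The culture difference of these ratios became 0.64 (Dlx5 to Dlx2), 0.026 (Dlx6 to Dlx2) and 0.62 (Dlx5 to Dlx6) there, by a test chosen after seeing the data. For breadth, the width at 50% of the maximum gave −0.74 (Dlx5 minus Dlx2) and turned Dlx6 minus Dlx2 to −0.40, and open length gave −0.43 (Dlx5 minus Dlx2) and −0.66 (Dlx5 minus Dlx6). The cause of these changes was not tested.

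The number of promoters called for level, 0 on the deposited scale, was 51 with median centring, 38 with quantile normalization, 73 with equal flanks and 61 with cyclic loess, the last chosen after seeing the data. The difference at Dlx5 then became −0.072, −0.0024 and −0.0092 with centring, equal flanks and cyclic loess. Leaving out single libraries moved the deposited difference over −0.33 to 0.049 at Dlx2, −0.049 to 0.26 at Dlx5 and −0.18 to 0.18 at Dlx6. With centring it left 22 to 58 promoters called, and limma without the trend left 0 (65 at an unadjusted p under 0.05). Centring on that segment's own median moved the central 400 bp of Dlx5 to 0.084, against 0.16 when centred on the window level.

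For core segments, 43 were called with centring and 61 with equal flanks against 0 as deposited. The centred number was 0 in limma without the trend (63 at an unadjusted p under 0.05) and ranged from 12 to 55 with single libraries left out, over which the centred Dlx5 difference ran from −0.015 to 0.30. For upstream segments the number called moved from 1 to 26 with centring, to 0 with the core edges at 300 bp, and over 0 to 2 with single libraries left out. Centring gave −0.093 at Dlx5 and −0.12 at Dlx6 there, and the left-out ranges were −0.19 to 0.067 (Dlx2), −0.019 to 0.20 (Dlx5) and −0.083 to 0.17 (Dlx6). For downstream segments it moved from 0 to 50 with centring, 1 with the core edges at 300 bp and 0 to 1 with single libraries left out. Centring gave −0.16 at Dlx6, and the ranges were −0.31 to 0.095 (Dlx2), −0.22 to 0.044 (Dlx5) and −0.18 to 0.26 (Dlx6).

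For effective width, 44 promoters were called against 3 by width at 50% of the maximum, 10 by open length, 12 without the trend and 8 to 70 with single libraries left out. The culture difference at Dlx2 was −0.34 by open length and ran from −0.012 to 0.040 by effective width with single libraries left out.

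The replicate numbers were not treated as pairs: the deviations of same-numbered libraries had r of 0.67, −0.61 and −0.60. A replicate block left 0 promoters called for deposited level, core and downstream signal, 1 for upstream signal and 39 for effective width. With a replicate block and median centring, 39 were called for level and 26 for the core. Dlx2 (level −0.34, core −0.48) and the Dlx6 core (−0.45) remained called, and Dlx5 had a level difference of −0.072.

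Depth entered as a scale without total read numbers, and no counting interval is given. The deposited and centred fits took each variance from a trend over promoters chosen by the authors, and no measured standard sets which scaling is right. Centring removes any change shared by most of the 235 promoters.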
